A study of Mus musculus with 8 samples.

Results

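Among the transcription factors that carry interferon and cytokine signals, the expression of 9 genes was examined in osteoclast precursor (OCP) cells treated with peroxiredoxin 1 (PRDX1) and RANKL, the cytokine that drives osteoclast formation. The genes were the interferon regulatory factors (IRFs) Irf1, Irf2, Irf3, Irf5, Irf7 and Irf9 and the signal transducers and activators of transcription (STATs) Stat2, Stat3 and Stat5a. They were taken by symbol from a table of 25124 genes, as a list drawn up with earlier results of these data known, and all 9 were found and passed the filter on low values that left 11700 genes for testing. Irf8 and Stat5b, which are close relatives, are described beside them.

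IRFs and STATs lie at the end of short routes from the cell surface to the nucleus. Toll-like receptors, including TLR4, to which extracellular PRDX1 is reported to bind, activate IRF3, IRF5 and IRF7 through adaptors and kinases, and these factors turn on type I interferon genes. Secreted interferon acts back on its receptor, where Janus kinases (JAKs) phosphorylate STAT2, which joins IRF9 in the complex ISGF3. ISGF3 binds the interferon-stimulated response element (ISRE), whereas dimers of other STATs such as STAT3 and STAT5 bind the gamma-activated site (GAS). Interferon signaling is known to restrain osteoclast formation, and both PRDX1 and RANKL act on cells of the monocyte lineage in which these factors are made.

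All cultures were bone marrow cells expanded with M-CSF and then kept in 30 ng/mL M-CSF for 48 h, with or without 200 nM recombinant PRDX1 and with or without 100 ng/mL RANKL. The 4 groups, of 2 libraries each, were no PRDX1 + no RANKL (control), PRDX1 + no RANKL, no PRDX1 + RANKL, and PRDX1 + RANKL. The labels give C57BL/6 mice of 6 to 8 weeks as the source of the marrow, whereas the culture methods of the study name ICR mice. The PRDX1 was a His-tagged protein made in bacteria and treated to remove endotoxin, and no culture with inactive protein was among the libraries. In a separate assay of osteoclast formation the study tested heat-inactivated PRDX1 and saw no inhibition. Whether replicates were separate animals is not stated, so the p-values measure only the spread between these libraries, which may be technical, and with 2 libraries against 2 no permutation test of a single gene could pass the threshold.

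Levels are given as FPKM (fragments per kilobase of transcript, scaled to library depth), a scale per length on which genes can be set side by side. Scaling to depth does not correct for the makeup of a library, and the 10 most abundant genes took from 4.75% to 9.69% of the reads on genes, least with RANKL alone. Between 24542578 and 41712973 reads were counted on genes per library; replicates varied beyond counting noise in each group, so none is a repeat deposit of another. The 9 genes were well covered: the fewest reads on any of them in a library were 692, for Stat5a, and the most were 48035, for Irf7. At 692 reads the counting error alone is 3.80%, and at the lowest Irf7 count of 8105 reads it is 1.11%. These errors take each read as independent. The reads were paired, and where both reads of a pair were counted the error would be larger. The macrophage markers fixed for this report were abundant, with summed levels from 9734 to 17063 FPKM. The summed osteoclast markers were 43.0 and 43.5 FPKM in control libraries, 87.5 and 91.7 FPKM with PRDX1 alone, 1864 and 1964 FPKM with RANKL alone, a check of the RANKL labels, and 249 and 257 FPKM with both treatments. In RNA from whole cultures, fewer cells of a type and less RNA per cell cannot be told apart.

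The promoter sequences of Stat2 and Irf1 are shown because each holds, within 250 bases of its annotated start, an element bound by the factors described here. Both sequences are from RefSeq, build GRCm38.p6 (mm10), plus strand, at chr10:128270248-128270497 for Stat2 and chr11:53769764-53770013 for Irf1. Capitals mark the ISRE core in Stat2 and the GAS core in Irf1.
Stat2: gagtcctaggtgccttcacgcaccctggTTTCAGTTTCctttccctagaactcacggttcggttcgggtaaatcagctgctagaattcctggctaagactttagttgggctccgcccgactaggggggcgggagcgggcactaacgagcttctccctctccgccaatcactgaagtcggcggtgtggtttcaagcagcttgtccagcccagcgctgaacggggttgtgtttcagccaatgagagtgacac
Irf1: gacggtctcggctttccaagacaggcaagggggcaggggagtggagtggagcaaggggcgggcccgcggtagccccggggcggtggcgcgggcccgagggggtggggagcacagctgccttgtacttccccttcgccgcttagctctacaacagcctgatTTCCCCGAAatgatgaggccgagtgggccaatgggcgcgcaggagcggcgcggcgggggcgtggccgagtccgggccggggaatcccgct

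The ISRE core of Stat2, which was searched as GAAA, any 2 bases and GAAA again, lay 222 to 213 bases upstream of the start, on the strand opposite to the gene. The GAS core (TTCNNNGAA) of Irf1 lay 90 to 82 bases upstream, and a match to the kappaB consensus, the sequence bound by NF-κB, followed 13 to 4 bases upstream. Irf2 held all 3 elements, with the ISRE core 241 to 232, the GAS core 224 to 216 and the kappaB match 17 to 8 bases upstream. Stat5a held only a kappaB match, 234 to 225 bases upstream, and the windows of Irf3, Irf5, Irf7, Irf9 and Stat3 held none of the 3. Over all 17623 promoters of this length searched on both strands, 3.07% held the ISRE core, 6.85% the GAS core and 7.79% the kappaB consensus. A match is a string of letters and not a bound site, and its absence concerns only these 250 bases. In the annotation the windows of Irf2, Irf7, Irf9 and Stat5a hold exons of other transcripts of the same gene on the same strand, so these windows lie partly inside the gene and other starts were not searched.

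Genes were called when the adjusted p-value (limma, Benjamini-Hochberg over all 11700 genes) was under 0.05 and the fold change at least 1.5. By this rule PRDX1 without RANKL raised 2 of the 9 genes, Irf7 and Stat2, and lowered 0, where 3.8% of all tested genes were called higher and 1.99% lower. PRDX1 in the presence of RANKL raised the same 2 genes and lowered 0, against 6.03% higher and 4.17% lower among all genes. RANKL without PRDX1 lowered 1 gene, Stat2, and raised 0, where 9.96% of all genes were lower and 11.8% higher. That balance over all genes depended on scaling, since 1165 were lower and 1383 higher here, but 1322 and 1088 with quantile normalization and 1302 and 1153 with upper quartile scaling. RANKL in the presence of PRDX1 called 0 of the 9 in either direction, against 4.52% of all genes higher and 3.98% lower. This balance turned as well, from 529 higher and 466 lower to 457 and 563 with quantile normalization and 466 and 542 with upper quartile scaling. Without the fold threshold, 1 of the 9, Irf1, passed the limma test higher and 1, Stat2, lower in that last comparison, where 26.2% and 14.4% of all genes did. The pass of Stat2 was lost with no filter on low values (limma adjusted p = 0.0820) and without any 1 of the 4 libraries with PRDX1 (adjusted p from 0.0736 to 0.111). A share of 2 in 9 rests on few genes, and nothing about the group as a whole is read from it. The PRDX1 comparison without RANKL and the RANKL comparison without PRDX1 use the same control libraries, and every other pair of these comparisons that has a group in common shares libraries in the same way.

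**Figure D1:**
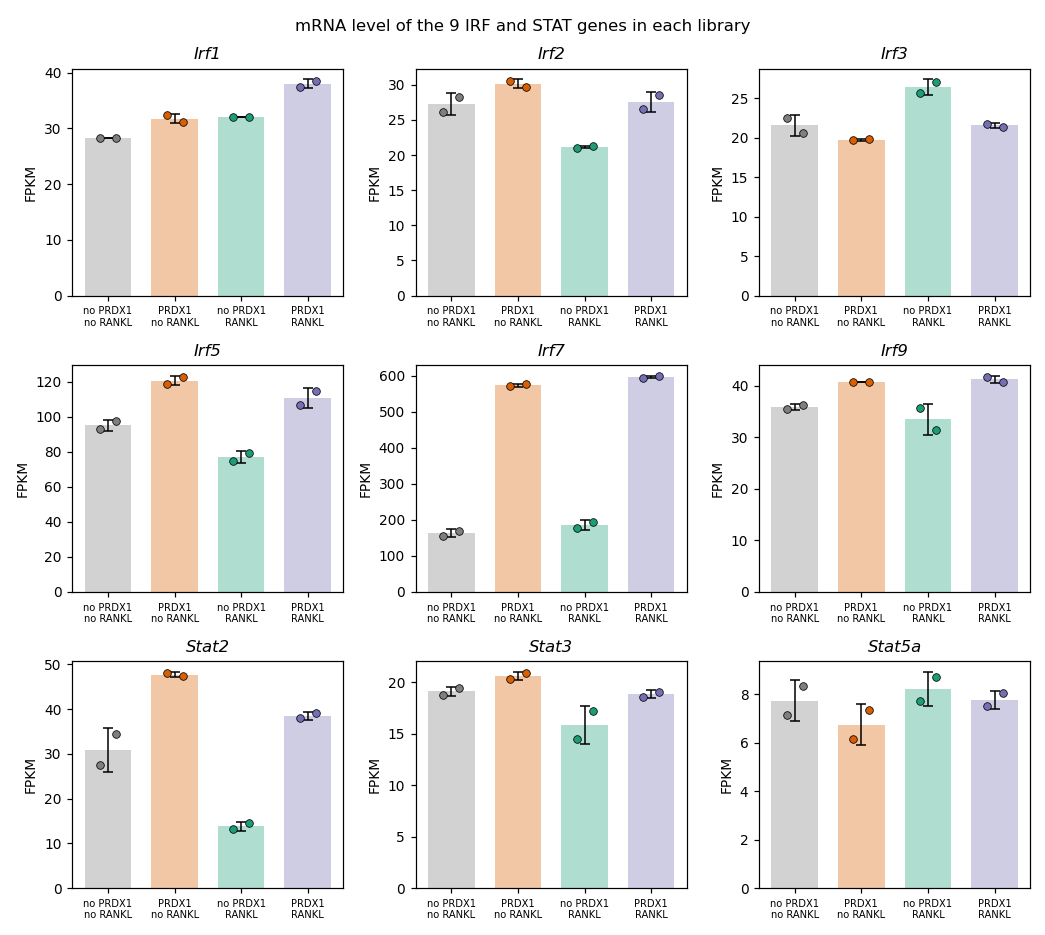
Expression level (FPKM, y axis from 0) of each of the 9 genes in the 4 groups. Points are libraries, bars are means and error bars are SD (n = 2). Irf7 lay at 570.3 to 598.7 FPKM in the 4 libraries with PRDX1 and at 156 to 194 FPKM in the 4 without it, and Stat2 was lowest, at 13.1 and 14.5 FPKM, with RANKL alone.

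Irf7, the factor that amplifies type I interferon production, showed the largest response to PRDX1 of the 9 genes. The gene (NM_001252601, chr7:141263183-141266424, minus strand) was at 156 and 170.1 FPKM in the control libraries and at 570.3 and 576 FPKM with PRDX1. With RANKL alone it was at 176 and 194 FPKM, and with PRDX1 + RANKL at 594 and 598.7 FPKM. The 4 libraries with PRDX1 were all above the 4 without it, and the groups did not overlap. The mean rose 3.51-fold with PRDX1 in the absence of RANKL, from 163 ± 9.80 to 573 ± 4.11 FPKM (mean ± SD, n = 2 libraries). On the log2 scale this was 1.81 ± 0.06 (SE; limma adjusted p = 2.63e-08). In the presence of RANKL it rose 3.22-fold, from 185 ± 13.0 to 596 ± 3.24 FPKM, or by 1.68 ± 0.06 log2 units (limma adjusted p = 1.66e-08). Fold changes were computed on log2(FPKM + 1), which understates those of weakly expressed genes.

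The increase of Irf7 by PRDX1 did not differ detectably between cultures with and without RANKL: the interaction was -0.12 on the log2 scale, with a 95% interval from -0.30 to 0.05 (limma adjusted p = 0.310). The interval therefore leaves room for a response up to 0.30 log2 units smaller with RANKL. RANKL itself went with a small difference in Irf7, 0.18 on the log2 scale (limma adjusted p = 0.0184), which did not reach the fold threshold and fell to 0.11 without RANKL replicate 2 (adjusted p = 0.116), to 0.12 without control replicate 1 (adjusted p = 0.139), and to 0.11 with quantile (adjusted p = 0.168) and with upper quartile scaling (adjusted p = 0.0994), and 0.06 in the presence of PRDX1 (adjusted p = 0.450). Irf7 was abundant also in control libraries, where its mean exceeded that of 96.6% of the genes tested, against 99.3% with PRDX1. Irf7 was also the 1 gene of the 9 called with PRDX1 + RANKL against control (log2 fold change 1.86), where 7.5% of all genes were higher and 5.34% lower.

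Stat2, the STAT that is specific to type I and type III interferon signaling, was the only 1 of the 9 genes called for both treatments and for their interaction. The gene (NM_019963, chr10:128270498-128292853, plus strand) was at 27.4 and 34.4 FPKM in control libraries, at 48.1 and 47.3 FPKM with PRDX1, at 13.1 and 14.5 FPKM with RANKL, and at 37.9 and 39.1 FPKM with both. The libraries with RANKL alone were the lowest and those with PRDX1 alone the highest, and no group overlapped another. RANKL alone lowered the mean from 30.9 ± 4.90 to 13.8 ± 0.974 FPKM, to 0.446 of the control level, a log2 fold change of -1.10 ± 0.09 (limma adjusted p = 3.45e-06). PRDX1 in the presence of RANKL raised it 2.79-fold, to 38.5 ± 0.812 FPKM, a log2 fold change of 1.42 ± 0.09 (adjusted p = 1.55e-06). PRDX1 alone raised it 1.54-fold, to 47.7 ± 0.588 FPKM (log2 fold change 0.62 ± 0.09, adjusted p = 7.71e-04).

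The PRDX1 effect on Stat2 was larger in the presence of RANKL than in its absence by 0.80 log2 units, with a 95% interval from 0.51 to 1.09 (limma interaction, adjusted p = 0.00174). Stat2 was the 1 gene of the 9 called in the interaction, in which 4.5% of all genes were called higher and 4.35% lower. In cultures with PRDX1, RANKL went with a Stat2 difference of -0.30 on the log2 scale (adjusted p = 0.0243), short of the fold threshold. The 2 control libraries differed more from each other than those of any other group, and without control replicate 1 the effect of PRDX1 alone was 0.46 (limma adjusted p = 0.00321), below the 1.5-fold threshold. With PRDX1 + RANKL the level was 0.32 log2 units above control (adjusted p = 0.0188), and each of the 3 steps in the order of the 4 groups passed the test. The step from control to both treatments was lost without control replicate 1 (0.16, limma adjusted p = 0.142), without either library with both treatments (adjusted p = 0.0586 and 0.0926) and with no filter on low values (adjusted p = 0.0665). The step from both treatments to PRDX1 alone was lost in the settings given above for RANKL with PRDX1, which is the same contrast.

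**Figure D2:**
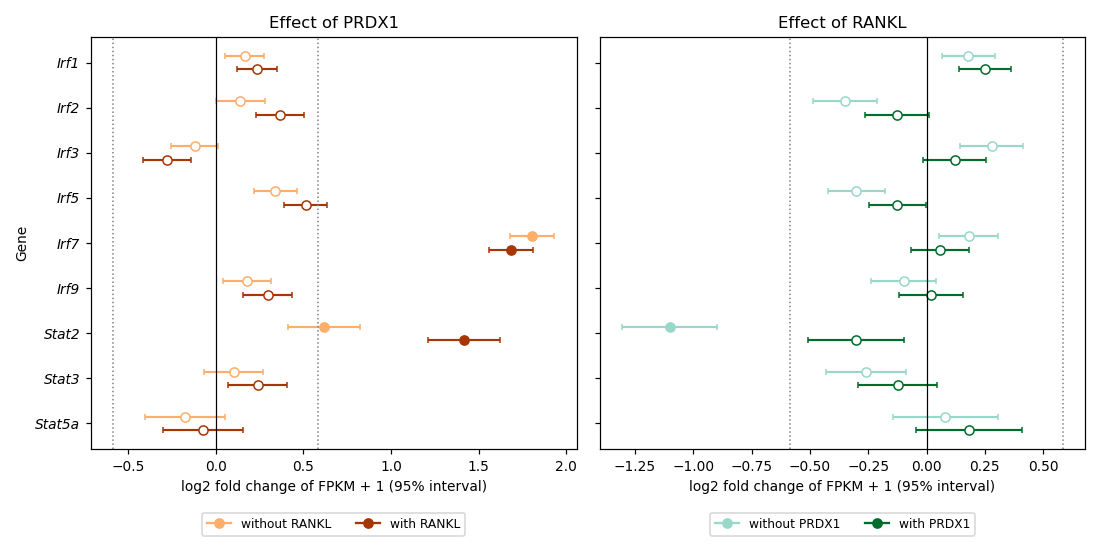
Log2 fold change of FPKM + 1 (x axis) of the 9 genes (y axis) by PRDX1 and by RANKL, with 95% intervals from limma. Filled points passed both thresholds, open points did not, and dotted lines mark 1.5-fold. Stat2 is filled for PRDX1 at 0.62 and 1.42 and for RANKL without PRDX1 at -1.10, and Irf7 is filled for PRDX1 at 1.81 and 1.68.

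Irf9 encodes the DNA-binding partner of STAT2 in ISGF3, and neither treatment brought it past the fold threshold. Irf9 (NM_001159418, chr14:55604579-55610030, plus strand) was at 35.4 and 36.3 FPKM in control libraries, 40.8 and 40.7 with PRDX1, 35.6 and 31.4 with RANKL, and 41.7 and 40.8 with both. The 4 libraries with PRDX1 were the 4 highest, although the differences were small. PRDX1 went with a log2 difference of 0.18 without RANKL (limma adjusted p = 0.0554) and 0.30 in its presence (limma adjusted p = 0.00358), and neither reached the fold threshold. The first of these was on the other side of 0.05 under 6 of the 15 alternatives (adjusted p from 0.0131 to 0.0463). No step between neighbouring groups in the order of Irf9 means passed the test in the main fit. The step from control to RANKL alone was -0.10 (limma adjusted p = 0.197). It passed at -0.17 with quantile (adjusted p = 0.0488) and at -0.16 with upper quartile scaling (adjusted p = 0.0452), and was -0.19 without RANKL replicate 1.

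Irf5 and Irf3 are, with Irf7, the IRFs activated below Toll-like receptors, IRF5 mainly driving inflammatory cytokines and IRF3 the earliest interferon genes. Irf5 (NM_012057, chr6:29526625-29537320, plus strand) was at 92.8 and 97.3 FPKM in control libraries, 119 and 123 with PRDX1, 74.5 and 79.4 with RANKL, and 106 and 114 with both. The 4 libraries with PRDX1 were again above the 4 without it. PRDX1 went with log2 differences of 0.34 without RANKL (limma adjusted p = 0.00123) and 0.51 in its presence (limma adjusted p = 4.37e-05), both under the fold threshold. RANKL alone went with a difference of -0.30 (adjusted p = 8.36e-04). Between the RANKL alone and PRDX1 alone groups the difference was -0.64 (adjusted p = 3.49e-06), which was past both thresholds. In that comparison 3 of the 9 genes, Irf5, Irf7 and Stat2, were lower with RANKL alone and 0 higher, against 10.7% lower and 14.3% higher among all genes. The balance over all genes again depended on scaling. It was 1255 lower and 1677 higher here, but 1466 and 1231 with quantile normalization and 1484 and 1217 with upper quartile scaling.

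For PRDX1, the Irf3 differences had the opposite sign to those of Irf5 and Irf7. The gene (NM_016849, chr7:44997648-45002848, plus strand) was at 22.5 and 20.6 FPKM in control libraries, 19.7 and 19.8 with PRDX1, 25.7 and 27.1 with RANKL, and 21.8 and 21.3 with both. The RANKL alone libraries were the highest and those with PRDX1 alone the lowest. PRDX1 went with -0.12 without RANKL (limma adjusted p = 0.176) and -0.28 in its presence (limma adjusted p = 0.00447), and RANKL alone with 0.28 (adjusted p = 0.00273). None of these reached the fold threshold. The ratio of Irf7 to Irf3 FPKM was 7.60 ± 0.929 in control and 29.0 ± 0.0233 with PRDX1, and 7.02 ± 0.227 with RANKL and 27.7 ± 0.530 with both. In the annotation 88 exonic bases of Irf3 overlap Bcl2l12 on the opposite strand, and reads there cannot be assigned to either gene because strand was not used in counting.

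Irf1 and Irf2 bind the same element, IRF1 as an activator and IRF2 mostly as its antagonist. Irf1 (NM_008390, chr11:53770014-53777324, plus strand) was at 28.2 FPKM in both control libraries, 32.4 and 31.2 with PRDX1, 32.1 in both RANKL libraries, and 37.4 and 38.6 with both treatments. It was lowest in control and highest with both, and the PRDX1 alone and RANKL alone groups overlapped. Each treatment went with a difference of similar size: 0.17 (limma adjusted p = 0.0327) and 0.24 (adjusted p = 0.00384) for PRDX1 without and with RANKL, and 0.18 (adjusted p = 0.0110) and 0.25 (adjusted p = 0.00310) for RANKL without and with PRDX1. The combined difference from control was 0.42 log2 units (adjusted p = 9.39e-05), still below 1.5-fold. The difference with PRDX1 alone no longer passed without any 1 of the 6 libraries outside the RANKL alone group (adjusted p from 0.0615 to 0.188), and that with RANKL alone was 0.10 with quantile (adjusted p = 0.111) and 0.11 with upper quartile scaling (adjusted p = 0.0785). The interaction was 0.07 with a 95% interval from -0.09 to 0.23.

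Irf2 (NM_008391, chr8:46739745-46847458, plus strand) was at 26.1 and 28.3 FPKM in control libraries, 30.6 and 29.7 with PRDX1, 21.1 and 21.2 with RANKL, and 26.5 and 28.6 with both. Only the RANKL alone group stood apart in the order of means in the main fit, at -0.35 log2 units from control (limma adjusted p = 6.92e-04). PRDX1 in the presence of RANKL went with 0.37 (limma adjusted p = 9.16e-04), below 1.5-fold like the difference before it. PRDX1 without RANKL went with 0.14 (adjusted p = 0.113). RANKL in the presence of PRDX1 went with -0.13 (limma adjusted p = 0.131). This passed at -0.18 both with quantile (adjusted p = 0.0401) and with upper quartile scaling (adjusted p = 0.0393). The ratio of Irf1 to Irf2 FPKM was 1.04 ± 0.0594 in control and 1.05 ± 0.00642 with PRDX1, and 1.52 ± 0.00917 with RANKL and 1.38 ± 0.0434 with both. The ratio was thus higher in the 4 RANKL libraries than in the 4 others.

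Stat3, which relays signals of the IL-6 and IL-10 families, varied little. The gene (NM_213660, chr11:100886806-100939540, minus strand) was at 18.8 and 19.4 FPKM in control libraries, 20.3 and 20.9 with PRDX1, 14.5 and 17.2 with RANKL, and 18.6 and 19.1 with both. The RANKL alone libraries were the lowest, and the 2 of them were farther apart than those of any other group. RANKL alone went with -0.26 (limma adjusted p = 0.0136) and PRDX1 in the presence of RANKL with 0.24 (adjusted p = 0.0283), while PRDX1 without RANKL went with 0.10 (adjusted p = 0.353). Without RANKL replicate 1, the lower library, the first was -0.15 and the second 0.12. The first was -0.24 without control replicate 2. The second was 0.26 without PRDX1 + RANKL replicate 1 and 0.22 without PRDX1 + RANKL replicate 2. In none of these fits did the difference named pass the test. The second was also lost with no filter on low values (limma adjusted p = 0.0640).

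Stat5a, a mediator of GM-CSF and other growth factor signals, was the least abundant of the 9 genes, above 38.9% of the genes tested in mean level. The gene (NM_001164062, chr11:100860484-100885169, plus strand) was at 7.15 and 8.33 FPKM in control libraries, 6.16 and 7.35 with PRDX1, 7.74 and 8.72 with RANKL, and 7.51 and 8.04 with both. The groups overlapped in most comparisons, and the largest of the 4 treatment differences was 0.18 log2 units, for RANKL with PRDX1 (limma adjusted p = 0.179; 95% interval from -0.04 to 0.41). The intervals for PRDX1 ran from -0.40 to 0.05 without RANKL and from -0.30 to 0.15 with RANKL. Stat5a shares 7.56% of its stretches of 100 bases, the read length, with its paralog Stat5b, and 72 exonic bases overlap Stat3 on the opposite strand. Stat5b was not called in any treatment comparison, and the ratio of Stat5a to Stat5b FPKM was 0.570 ± 0.0239 in control, 0.547 ± 0.0104 with PRDX1, 0.759 ± 0.0448 with RANKL and 0.671 ± 0.00225 with both.

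Seen together, 7 of the 9 genes had a log2 fold change above 0 with PRDX1, both without and with RANKL. Their median was 0.17 without RANKL and 0.30 with RANKL, where the medians over all tested genes were -0.04 and -0.06. At any fold change, 4 of the 9 without RANKL and 7 with RANKL passed the limma test in the direction of an increase, where 12.2% and 16.9% of all genes did. Over the alternative settings and left-out libraries these counts ran from 3 to 5 and from 6 to 7. In the direction of a decrease 0 passed without RANKL and 1, Irf3, with RANKL, against 17.6% and 25.6% of all genes. For RANKL without PRDX1 the 9 genes had a median of -0.10, against 0.10 over all genes, with 3 passing higher and 4 passing lower, counts that ran from 1 to 3 and from 3 to 5 over the alternatives and were 1 and 5 with quantile and with upper quartile scaling. The corresponding shares of all genes were 37% and 22.9%.

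The makeup of the IRF family differed with PRDX1, mostly in the share of Irf7. Irf7 made up 38.7% ± 0.887 of the summed FPKM of 8 IRF genes (Irf1 to Irf5 and Irf7 to Irf9) in control, 65.4% ± 0.0827 with PRDX1, 48.2% ± 1.57 with RANKL and 69.3% ± 0.525 with both. Without Irf7, the other 7 of these genes summed to 258 ± 5.85 FPKM in control, 303 ± 1.07 with PRDX1, 198 ± 1.48 with RANKL and 264 ± 7.96 with both. This sum includes Irf8, a factor of the monocyte lineage that restrains osteoclast formation, which was at 47.8 and 50.3 FPKM in control libraries and at 7.77 and 7.72 FPKM with RANKL. Irf8 fell with RANKL alone (log2 fold change -2.52, limma adjusted p = 2.66e-10) and rose with PRDX1 in the presence of RANKL, to 23.9 and 25.4 FPKM (log2 fold change 1.55, adjusted p = 2.72e-08). Its interaction was 1.28 (adjusted p = 3.81e-06), so that Irf8 and Stat2 were both lowest with RANKL alone and higher with PRDX1 + RANKL, but Irf8 stayed below its control level there and Stat2 did not.

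**Figure D3:**
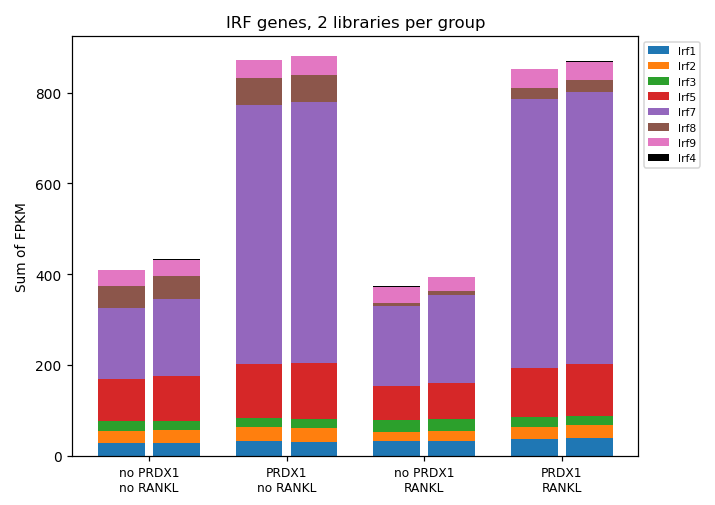
Stacked FPKM (y axis) of 8 IRF genes in each of the 8 libraries, side by side within the 4 groups (x axis). The Irf7 block makes up 65.4% of the IRF sum with PRDX1 and 38.7% in control.

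Genes upstream of these factors were described by lists that overlap in part, and each count is to be read against the shares of all tested genes called. These were 3.8% higher and 1.99% lower for PRDX1 alone, 6.03% and 4.17% for PRDX1 with RANKL, and 11.8% and 9.96% for RANKL alone. Of 17 interferon and cytokine ligands in the table only 3 passed the filter on low values, and 9, among them Ifnb1, Ifna1, Ifna2, Ifna4 and Ifng, had at most 3 reads in every library. Transcripts of these interferons were thus not detectable above a floor of 3 reads, which covers counting error only, at the single time point sampled. The subunits of the type I interferon receptor, Ifnar1 and Ifnar2, were not called for either treatment. Ifnar2 nonetheless passed the limma test for PRDX1 in the presence of RANKL at 0.43 (adjusted p = 1.46e-04) and for RANKL alone at -0.46 (adjusted p = 4.42e-05). Of 16 receptor genes tested, PRDX1 raised 4 without RANKL, led by Csf2rb2, a beta chain that serves IL-3 (log2 fold change 1.47), and lowered 1, Lifr, the receptor for LIF (-0.82, limma adjusted p = 4.83e-04). With RANKL it raised 4 and lowered 0, led by Csf3r, the G-CSF receptor, whose mean went from 0.456 to 1.90 FPKM. RANKL alone raised 4, led by Il2rg, the common gamma chain (2.42), and lowered 5, led by Lifr (-1.38) and Il4ra (-1.22).

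The 4 JAK kinases were called in none of the treatment comparisons, with log2 fold changes for PRDX1 from -0.15 to 0.24 without RANKL and from 0.07 to 0.17 with RANKL. For RANKL they ran from -0.25 to 0.57 without PRDX1 and from -0.05 to 0.50 with PRDX1, the upper end lying just under the fold threshold. The highest was Jak2, at 9.58 FPKM in control and 14.7 FPKM with RANKL alone. Of 19 adaptors and kinases upstream of the IRFs, 0 were called with PRDX1 alone and 2 with PRDX1 in the presence of RANKL, counts too small to set apart from the shares of all genes. The 2 were Ikbke, a kinase that activates IRF3 and IRF7 (log2 fold change 0.99, limma adjusted p = 1.20e-06), and the RNA sensor Ifih1 (0.66, adjusted p = 1.75e-05). Ikbke had the same order as Stat2, falling with RANKL alone from 32.4 ± 2.55 to 19.0 ± 0.0841 FPKM (log2 fold change -0.73, adjusted p = 3.45e-06) and standing at 38.7 ± 1.09 FPKM with both treatments. Its close relative Tbk1 was not called in any of the 4 treatment comparisons. Among 15 inhibitors of JAK-STAT signaling, Usp18, which binds IFNAR2 and dampens the receptor, rose with PRDX1 both without (0.94, adjusted p = 1.25e-05) and with RANKL (1.03, adjusted p = 2.99e-06). Socs3 (0.85) and Socs1 (0.64), inhibitors of JAK activity, rose with PRDX1 in the comparison without RANKL, and both also rose with RANKL alone, by 1.77 and 0.98 log2 units.

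The clearest count among the target lists was that of ISGF3. Of 29 genes listed as targets of this complex, PRDX1 raised 17 without RANKL (median log2 fold change 0.69) and 26 with RANKL (median 0.92), and lowered 0. Among all tested genes 3.8% were called higher and 1.99% lower without RANKL, and 6.03% and 4.17% with RANKL. The medians of all tested genes were near 0, at -0.04 and -0.06. Whether the listed genes depended on ISGF3 in these cultures was not tested. The largest increases without RANKL were those of the antiviral genes Oasl1 (1.32), Ifit3 (1.24) and Ifit1 (1.17), and with RANKL those of Mx1 (1.89), Ifit3 (1.79) and Ifit3b (1.66). RANKL alone raised 3, led by the chemokine gene Cxcl10 (2.65), and lowered 5, led by Mx1 (-1.61), where 11.8% of all genes were higher and 9.96% lower, so that nothing about the list is read from these counts. The same holds for the interaction, in which 2 of the 29 were called higher against 4.5% of all genes. They were Cxcl10 at 1.20 (limma adjusted p = 0.00333) and Mx1 at 1.19 (adjusted p = 3.98e-04). Mx1 was at 12.8 and 15.1 FPKM in control libraries, 22.5 and 23.8 with PRDX1, 4.47 and 3.37 with RANKL, and 17.5 and 16.7 with both, which is the same order of groups as that of Stat2.

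The lists of targets of the other members were shorter, and their counts stand against 3.8% of all genes higher with PRDX1 alone, 6.03% with PRDX1 in cultures given RANKL, and 11.8% higher and 9.96% lower with RANKL alone. Of 18 genes listed as targets of IRF1 or the GAS element, PRDX1 raised 4 without RANKL, led by B2m, the light chain of MHC class I (0.88), and 6 with RANKL, led by Nlrc5, the activator of MHC class I genes (0.78). RANKL alone raised 7 of them, led by the adhesion gene Icam1 (1.34). Of 13 STAT3 targets PRDX1 raised 5 without RANKL, led by Fos (1.52), and with RANKL raised 4, led by Lcn2 (1.16), and lowered 1, Fosl2 (-1.64). Fos and Fosl2 belong to AP-1, which RANKL also induces, and they rose with RANKL alone by 3.06 and 2.28. In all, RANKL alone raised 6 of the STAT3 targets and lowered 2, Il4ra (-1.22) and the kinase gene Pim1 (-0.84). Of 8 STAT5 targets tested, RANKL alone lowered 6, led by the cyclin gene Ccnd2 (-2.89) and the survival gene Bcl2l1 (-2.67), and RANKL with PRDX1 lowered 4, where 3.98% of all genes were lower. PRDX1 alone raised 1 of the 8, Id1 (2.21), and PRDX1 in the presence of RANKL raised 5, led by Id1 (1.99) and Bcl2l1 (1.39). These changes were larger than any of Stat5a or Stat3 themselves, whose transcripts were not called.

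**Figure D4:**
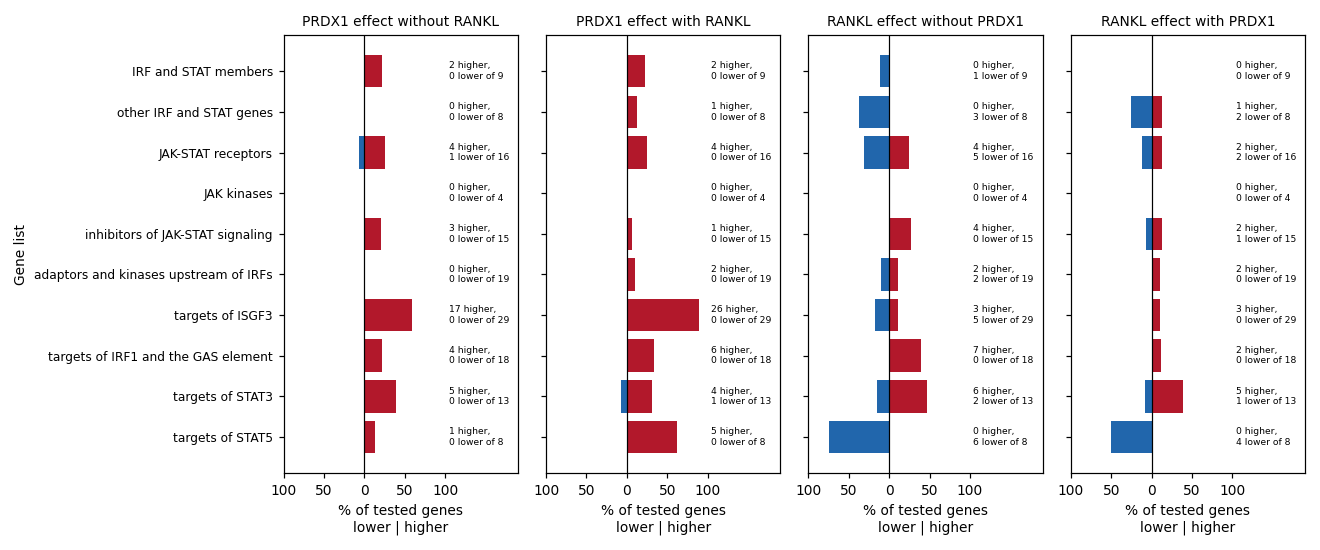
Share of tested genes of each list (x axis, percent; blue to the left called lower, red to the right called higher) in the 4 treatment comparisons, with the counts printed beside the bars. Within each of the PRDX1 comparisons the longest red bar is that of the ISGF3 targets, at 17 of 29 and 26 of 29, and the longest blue bar of the 4 comparisons is that of the STAT5 targets, at 6 of 8 with RANKL alone.

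As a description of their patterns, the genes whose log2(FPKM + 1) followed each member most closely over the 8 libraries were listed by Pearson correlation. Over 8 points that fall into 4 groups such values are high for many genes, and no test was made. Irf7 was followed by Slfn4 (r = 0.999), H2-L (0.998) and Sqstm1 (0.997), and Stat2 by Fndc3a, Atp6v0e2 and Grina (each 0.994). Irf9 was followed by the interferon-inducible genes Gm12250 (0.980), Eif2ak2 (0.980) and Tgtp2 (0.979), and Irf5 by Npc1 (0.994), Rtf2 (0.994) and Ifi207 (0.991). Irf1 was followed by Ptafr (0.992), Mdm2 (0.988) and Rhoq (0.988), and Irf2 by Coro2a (0.996), Prkx (0.991) and Iffo1 (0.987). Irf3 was closest to the row of the microRNA gene Mir3113 (0.992) and to the ribosomal protein genes Rps15 (0.992) and Rps16 (0.991). Stat3 was followed by Man2b2 (0.992) and Dnm2 (0.987). Stat5a had the weakest match of all, with Sp2 (0.947), Nsf (0.944) and Hdgfl2 (0.940).

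Markers of other cell types moved with PRDX1 beside Irf7 and Stat2. The counts of markers called are to be read against the shares of all tested genes. These were 3.8% higher and 1.99% lower with PRDX1 alone, and 6.03% and 4.17% with PRDX1 in the presence of RANKL. With RANKL alone they were 11.8% and 9.96%. The summed neutrophil markers, of which 6 of 8 were tested, ranged from 8.38 to 12.7 FPKM in control, 39.1 to 43.7 with PRDX1, 16.5 to 18.0 with RANKL and 34.4 to 38.0 with both, and 4 of the 6 rose with PRDX1 alone and 3 with PRDX1 in the presence of RANKL. Dendritic cell markers (3 of 7 tested) ranged from 7.11 to 7.45, 15.9 to 16.8, 9.87 to 10.9 and 18.5 to 20.04 FPKM in the same order, and 2 of the 3 rose in each PRDX1 comparison. Itgax made up most of these sums, with means of 5.36 FPKM in control, 13.9 with PRDX1, 8.34 with RANKL and 15.4 with both. Cd209a, also tested, went the other way with PRDX1 alone, from 1.25 FPKM in control to 0.602. Markers of plasmacytoid dendritic cells, which make much interferon and express Irf7, summed to 188 to 221, 323 to 331, 168 to 178 and 323.1 to 325.7 FPKM, and of the 4 tested 3 rose with PRDX1 alone and 1 with PRDX1 in the presence of RANKL. Most of that sum was Bst2, itself on the ISGF3 target list. Siglech, another of these plasmacytoid markers, was at 0.742 ± 0.0509 FPKM in control and 1.78 ± 0.363 with PRDX1. It was at 0.922 ± 0.0679 with RANKL and 1.74 ± 0.0530 with both, so that its 4 libraries with PRDX1 were above the 4 without it. Tcf4, also a plasmacytoid marker, was not higher with PRDX1 alone, with means of 10.99 FPKM in control and 10.51 with PRDX1. Its means were 6.51 FPKM with RANKL and 8.31 with both. Of the osteoclast markers, 3 of the 8 tested rose with PRDX1 alone, and 8 of 8 fell with PRDX1 in the presence of RANKL. Stromal markers ranged from 7.95 to 10.8, 17.0 to 17.1, 7.97 to 9.91 and 15.2 to 19.3 FPKM, and 2 of the 4 tested rose in each PRDX1 comparison. Of the T and NK cell, B cell, erythroid, and mast cell or basophil lists 0 markers passed the filter. The summed B cell markers were nonetheless at 0.642 to 0.999 FPKM in control, 1.72 to 2.16 with PRDX1, 0.695 to 0.948 with RANKL and 1.46 to 1.61 with both, the 4 libraries with PRDX1 lying above the 4 without it. The markers Cd3e, Ncr1, Hbb-bt, Cpa3, Ms4a2 and Fcer1a were at 0 in all 8 libraries. The summed macrophage markers, mostly Lyz2, were 15316 to 17063 FPKM in control, 16211 to 16670 with PRDX1, 9734 to 10153 with RANKL and 13147 to 13539 with both, so that they, like Stat2, were lowest with RANKL alone. Of the 8 macrophage markers, 0 were called with PRDX1 alone, 6 fell with RANKL alone, and 4 rose with PRDX1 in the presence of RANKL. The part of these markers in the changes of Irf7 and Stat2 was not tested.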

How the data were processed

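RNA of 8 cultures, 2 in each of 4 groups, was sequenced as paired reads of 100 bases. The authors aligned the reads to mm10 and counted them without regard to strand on exons of RefSeq genes with HOMER, keeping 1 transcript per gene, and deposited FPKM values. Per the labels' processing notes HISAT2, HOMER and DESeq2 were used; versions are not given in the sources used here. FPKM multiplied by transcript length was a whole number of reads for 100% of the genes checked (tolerance 0.2 reads), which gave library totals of 27284658 to 46171825 reads.

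Genes were kept when FPKM averaged 0.5 or more over the 8 libraries, which left 11700. Their log2(FPKM + 1) was fitted by limma 3.58.1 (R 4.3.3), all 4 groups together, and variances were moderated along a trend with mean level. Treatment effects, the interaction and the remaining pairs of groups were contrasts of this fit, with Benjamini-Hochberg adjustment over all genes in each contrast, and intervals are 95% intervals for single genes. The thresholds (adjusted p-value under 0.05, 1.5-fold) are those of the study. All samples were grouped by their labels. The table held 0 columns of other samples. The steps were tested on simulated data.

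The 9 genes, the pathway and marker lists and the tests were chosen with earlier results of these data known. Named were all 9 genes, up to 3 called genes with the largest change per list and comparison, partners, kinases, inhibitors and paralogs of the 9 genes, and up to 3 genes most correlated with each. Some genes that this rule or the lists would name are not reported here. Exon overlaps and shared stretches of 100 bases were computed from GENCODE M21, and promoters were taken from a RefSeq table in which the starts of all 9 genes matched those of the FPKM table. Protein sequences were not used here. Alternatives tried were a pseudocount of 0.1, no filter and a filter at 1 FPKM, quantile and upper quartile scaling, voom on the recovered reads, a replicate block, and leaving out each library in turn.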

Additional observations from a re-analysis of the deposited data

Results flagged for a closer look

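Stat2 was singled out because the effect of PRDX1 on its level differed between cultures with and without RANKL by the interaction test of the limma fit. The difference was 0.80 on the log2 scale (adjusted p = 0.00174), from 0.62 without RANKL to 1.42 with RANKL. It was between 0.64 and 0.96 when each of the 8 libraries was left out in turn, and the lowest value came without control replicate 2.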

How the results depend on the processing

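Of 675 log2 fold changes of the 9 genes under the alternatives, 668 kept their direction and their call, for which both the adjusted p and the fold must pass, and 7 did not. On the adjusted p alone, at any fold, 38 of the 675 changed sides, 24 losing and 14 gaining a pass. Of these 3 were lost with no filter on low values (Irf7 for RANKL alone, adjusted p = 0.0555; Stat2 for RANKL with PRDX1, 0.0820; Stat3 for PRDX1 with RANKL, 0.0640), and quantile and upper quartile scaling changed 5 and 6. Without no PRDX1 + no RANKL replicate 1, the count of the 9 genes raised by PRDX1 alone was 1 and not 2, since Stat2 was at 0.46; over all left-out libraries that count ranged from 1 to 2. Irf5 passed both thresholds for PRDX1 with RANKL under quantile normalization (0.60, adjusted p = 2.31e-05). Differences that were near 0 turned sign: for RANKL with PRDX1, Irf9 was -0.032 by quantile and -0.035 by upper quartile scaling, and over the left-out libraries Stat5a ran from -0.017 to 0.18 for RANKL alone (lowest without control replicate 1), from -0.0088 to 0.21 in the interaction (lowest without PRDX1 + no RANKL replicate 1), and from -0.15 to 0.0053 for PRDX1 with RANKL (highest without no PRDX1 + RANKL replicate 2). Over all genes, those lowered by PRDX1 alone numbered 233, but 360 with a pseudocount of 0.1 and 389 with voom on the recovered reads; the cause was not tested. The replicate numbers shared by the groups did not pair the libraries, since deviations of same-numbered libraries correlated at 0.00847 to 0.0965. The header of the deposited table names the libraries of some groups by other numbers than their columns, so that this check and the block concern the column numbers and may not follow the cultures. With the number as a replicate block, PRDX1 alone still raised 2 of the 9 genes and lowered 0, the all-gene counts were 444 and 232, and the block changed no call of the 9 genes, although 3 differences below 1.5-fold gained a pass on the adjusted p. The values concern mRNA at 48 h only, in 2 libraries a group.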
